A study of Homo sapiens with 16 samples.

Results

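The nuclear-encoded subunits of the mitochondrial respiratory chain and of ATP synthase were described across 2 human cell lines, with and without induction of short hairpins against the transcription factor PRRX1. Members were all symbols of the count table that name a subunit of complex I (NDUFA, NDUFB, NDUFC, NDUFS and NDUFV genes), II (SDHA to SDHD), III (UQCR genes), IV (COX4 to COX8 genes) or V (ATP5 genes), 88 of 20114 symbols. Of these, 80 code for subunits (36 of complex I, 4 of II, 8 of III, 17 of IV, NDUFA4 included, and 15 of V). The other 8 are paralogues, pseudogenes or genes that only carry such a symbol: NDUFA4L2, COX7A2L, COX6A1P2, ATP5S, ATP5SL, ATP5EP2, ATP5J2-PTCD1 and ATP5L2. The rule reads gene symbols only, and it was set with earlier results of these data known.

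PolyA RNA was sequenced from 16 libraries in 8 groups. In each of the lines Hs578, a breast cancer line, and TT642 there were 3 lines derived with an inducible PRRX1 hairpin (3 different hairpins, 1 library of each with doxycycline at 3 µg/ml, DOX, and 1 of each without, noDOX) and the parental line without a hairpin (1 library DOX and 1 noDOX). The hairpin number is the replicate, so a group of 3 libraries holds 3 hairpins. P-values of the main fit rest on the spread between hairpins within groups, pooled over the hairpin groups of both lines. That fit does not pair the DOX and noDOX libraries of a hairpin. No separate cultures of 1 hairpin, no non-targeting hairpin and no treatment time are given by the labels.

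The respiratory chain passes electrons from NADH (complex I) and succinate (complex II) through ubiquinone to complex III, cytochrome c and complex IV, and ATP synthase (complex V) uses the resulting proton gradient to make ATP. The catalytic cores of complexes I, III and IV and the membrane sector of complex V contain subunits made from mitochondrial DNA, whereas complex II is wholly nuclear and is also an enzyme of the citrate cycle. Many small nuclear subunits are accessory and hold the complexes together. The factors NRF1, GABPA (of the ETS family) and YY1 are known to bind many promoters of these genes. Doxycycline, the inducer, also binds the mitochondrial ribosome.

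Promoter windows of RefSeq (GRCh38.p14, 250 bases before to 50 after the annotated start) were matched to 69 of the 88 members. They are shown for 7 members, with each complex represented and the 1 subunit that fell included, so that windows of genes that moved differently can be read side by side. Capitals mark GCGCATGCG (the NRF1 letters), CCGGAAG (ETS) and AAGATGGC (YY1) on either strand, and matches of the last pair can overlap. NDUFA3 lies at chr19:54102605-54102904 (plus strand), NDUFA13 at chr19:19515975-19516274 (plus strand), NDUFS1 (the first of its windows) at chr2:206159395-206159694 (minus strand), SDHD at chr11:112086623-112086922 (plus strand), UQCRQ at chr5:132866392-132866691 (plus strand), COX6B1 at chr19:35648073-35648372 (plus strand) and ATP5I at chr4:674227-674526 (minus strand).
NDUFA3: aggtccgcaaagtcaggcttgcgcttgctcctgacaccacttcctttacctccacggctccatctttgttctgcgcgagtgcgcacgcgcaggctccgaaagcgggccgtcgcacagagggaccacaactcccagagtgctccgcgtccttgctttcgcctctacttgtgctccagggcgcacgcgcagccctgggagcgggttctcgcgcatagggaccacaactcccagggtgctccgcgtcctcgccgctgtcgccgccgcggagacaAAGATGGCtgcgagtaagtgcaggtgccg
NDUFA13: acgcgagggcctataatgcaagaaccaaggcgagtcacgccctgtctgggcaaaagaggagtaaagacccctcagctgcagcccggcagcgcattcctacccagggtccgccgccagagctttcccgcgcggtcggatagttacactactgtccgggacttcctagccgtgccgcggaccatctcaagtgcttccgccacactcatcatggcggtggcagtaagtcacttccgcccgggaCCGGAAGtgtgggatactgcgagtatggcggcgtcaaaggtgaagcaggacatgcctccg
NDUFS1: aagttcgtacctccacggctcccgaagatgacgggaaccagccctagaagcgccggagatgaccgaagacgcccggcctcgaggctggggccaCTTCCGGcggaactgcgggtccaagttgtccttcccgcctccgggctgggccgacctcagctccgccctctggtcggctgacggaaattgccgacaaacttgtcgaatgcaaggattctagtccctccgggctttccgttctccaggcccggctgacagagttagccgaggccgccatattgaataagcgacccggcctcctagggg
SDHD: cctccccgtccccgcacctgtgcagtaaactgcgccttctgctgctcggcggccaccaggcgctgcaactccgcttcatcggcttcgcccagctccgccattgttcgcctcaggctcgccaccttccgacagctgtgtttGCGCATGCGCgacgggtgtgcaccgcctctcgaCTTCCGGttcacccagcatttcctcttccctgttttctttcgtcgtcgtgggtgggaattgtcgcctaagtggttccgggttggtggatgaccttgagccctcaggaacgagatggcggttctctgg
UQCRQ: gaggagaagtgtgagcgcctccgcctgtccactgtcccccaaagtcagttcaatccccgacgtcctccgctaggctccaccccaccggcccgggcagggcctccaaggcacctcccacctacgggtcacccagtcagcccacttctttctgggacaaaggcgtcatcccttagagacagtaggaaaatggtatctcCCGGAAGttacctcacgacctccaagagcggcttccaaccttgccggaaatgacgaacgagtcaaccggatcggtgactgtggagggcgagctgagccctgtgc
COX6B1: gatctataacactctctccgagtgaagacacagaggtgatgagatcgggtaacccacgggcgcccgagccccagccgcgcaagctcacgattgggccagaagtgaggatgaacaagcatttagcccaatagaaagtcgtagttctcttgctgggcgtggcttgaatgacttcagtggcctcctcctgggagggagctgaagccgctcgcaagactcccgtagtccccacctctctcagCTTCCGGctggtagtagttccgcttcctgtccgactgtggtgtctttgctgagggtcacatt
ATP5I: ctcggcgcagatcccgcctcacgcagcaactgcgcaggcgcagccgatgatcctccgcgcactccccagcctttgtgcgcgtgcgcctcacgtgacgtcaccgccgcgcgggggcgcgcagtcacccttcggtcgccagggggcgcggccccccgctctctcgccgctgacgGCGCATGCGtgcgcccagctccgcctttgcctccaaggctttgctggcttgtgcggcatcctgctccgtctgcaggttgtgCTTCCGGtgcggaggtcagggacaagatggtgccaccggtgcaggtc

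At least 1 of the 3 motifs was found in 36 of 66 subunits with a window (54.5%), against 22.2% of 15843 protein-coding genes with a window. The NRF1 letters were in 16.7% of the subunits against 3.11% of the protein-coding genes, the ETS letters in 30.3% against 16.5%, and the YY1 letters in 18.2% against 4.66%. By complex the share with any motif was 51.6% in I, 57.1% in III, 35.7% in IV and 81.8% in V, and 2 of the 3 complex II genes with a window had one. These letters are a description of the windows and not evidence of binding.

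Library totals ran between 13461527 and 24672906 counts, and the 80 subunits together took between 0.558% and 0.793% of them. PRRX1 in DOX libraries stood at 12.7%, 32.1% and 19.5% of the noDOX library with the same hairpin in Hs578 and at 21.8%, 13.03% and 39.4% in TT642, and at 103% in both parental lines. The labels give breast cancer cells as the source of Hs578 and a rhabdoid tumor as that of TT642, while the design text calls both triple-negative breast cancer. ESR1 did not pass 0.607 and PGR did not pass 3.5 CPM (counts scaled to library size) in any library. ERBB2, by contrast, was at 69.9 to 78.8 CPM in Hs578 libraries and at 110 to 173 CPM in TT642 libraries. SMARCB1, whose loss defines rhabdoid tumors, was at 28.8 to 41.6 CPM in TT642 libraries and at 87.7 to 125 CPM in Hs578 libraries.

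Subunits of complexes I, III, IV and V rose in Hs578 when the hairpins were induced, and no subunit of complex II passed the test. Of the 76 subunits with enough counts to test, 55 rose, 1 fell and 20 did not pass the test (edgeR quasi-likelihood test over all libraries, adjusted p under 0.05 over 14035 genes). Among all genes 15.2% were called higher and 14.1% lower. The median log2 fold change of the subunits was 0.48, and that of all tested genes 0. In 64 of the 76 subunits (84.2%) all 3 DOX libraries stood above all 3 noDOX libraries, which held for 22.1% of all tested genes. Taken pair by pair, the median log2 ratio of DOX over noDOX was 0.35, 0.48 and 0.57 for hairpins 1, 2 and 3, and 0.23 in the parental pair, so the parental value lay on the same side of 0 without a hairpin. By complex, the 3 hairpin medians ran from 0.35 to 0.54 for I, −0.06 to 0.05 for II, 0.36 to 0.56 for III, 0.41 to 0.75 for IV and 0.39 to 0.59 for V, against parental values of 0.24, 0.17, 0.26, 0.32 and 0.09. PRRX1 itself was lowest with hairpin 1, whose pair had the smallest subunit median of the 3 hairpins. Hairpin 3 left less PRRX1 than hairpin 2 (19.5% against 32.1%) and had the larger subunit median (0.57 against 0.48). A relation between PRRX1 and the subunit medians was not tested. In bulk RNA a change in the share of cells and a change in RNA per cell cannot be told apart.

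The rise in Hs578 went with gene length, as implied by the deposited values, and with GC content. The length implied by each gene's deposited count and FPKM (fragments scaled to transcript length and library size) had a median of 617 bases in the tested subunits and of 2776 bases in all tested genes. In Hs578, the log2 fold change fell with that length over all genes (Spearman's rho −0.43 over 14014 genes, which are not independent replicates) and within the subunits (−0.52 over 76), and rho over all genes was −0.25 in the parental Hs578 pair and −0.05 in the TT642 hairpin lines. Among genes under 500 bases the median was 0.63 for 29 subunits and 0.45 for 418 other genes, with 86.2% of the subunits and 43.1% of the other genes called higher. From 500 to 1000 bases it was 0.47 for 24 subunits and 0.35 for 1003 other genes, from 1000 to 2000 bases 0.23 for 14 and 0.17 for 3049, and from 2000 to 4000 bases 0.32 for 8 and −0.01 for 5228. Over 4000 bases, NDUFS1 was the 1 subunit, at −0.33, and 4234 other genes had a median of −0.22, with 29.1% called lower. With a smooth offset for this length in the fit, 16 subunits were called higher and 2 lower, the median was 0.12, and 9.33% of all genes were called higher and 9.48% lower. With the median length of the gene's GENCODE 29 transcripts in its place, an alternative chosen after seeing the data, 44 subunits and 1648 of all 14035 genes were called higher, and the subunit median was 0.36. The log2 fold change in Hs578 had a rho of −0.30 with this GENCODE length over all genes and −0.36 within the subunits. With GC content rho was 0.40 over all genes and 0.46 within the subunits. The 2 lengths had a rho of 0.66 with each other. The part of length in the result cannot be told apart from that of the hairpins in the fit without the offset. Without hairpin 3 in both lines, 16 subunits were called higher and 0 lower, with a median of 0.41, and 376 of all 13965 genes tested were called higher.

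**Figure D1:**
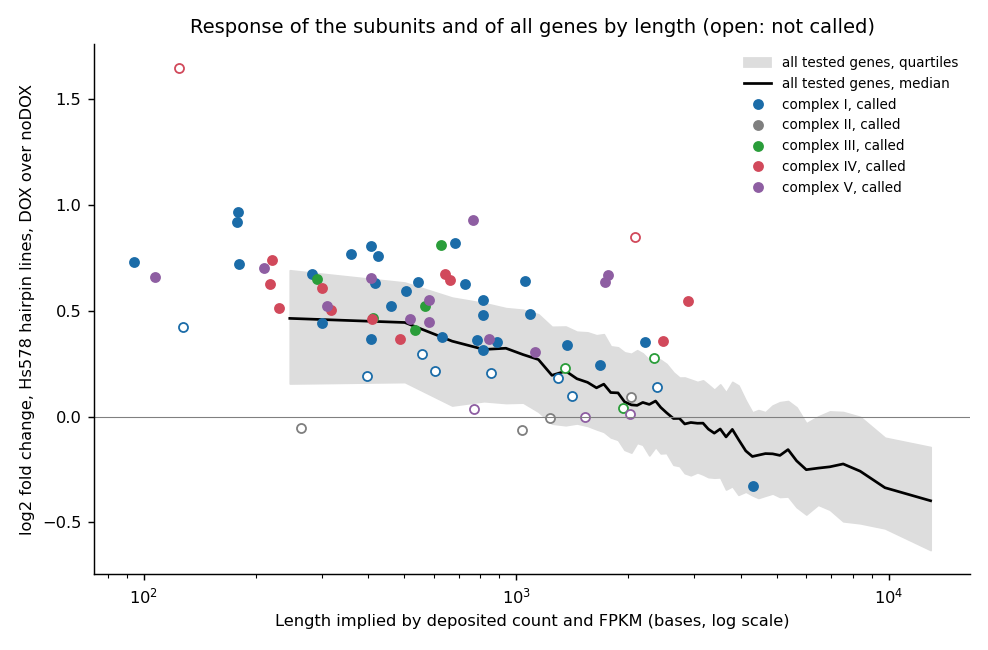
Log2 fold change in the Hs578 hairpin lines (DOX over noDOX, vertical axis) against the length implied by the deposited count and FPKM (bases, log scale); points are the 76 tested subunits, filled where called, the line is the median and the band the quartiles of all tested genes. The gene median falls with length, the subunits' median exceeds that of other genes under 500 bases (0.63 against 0.45) and from 500 to 1000 bases (0.47 against 0.35), and NDUFS1, the longest subunit, lies at −0.33.

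**Figure D2:**
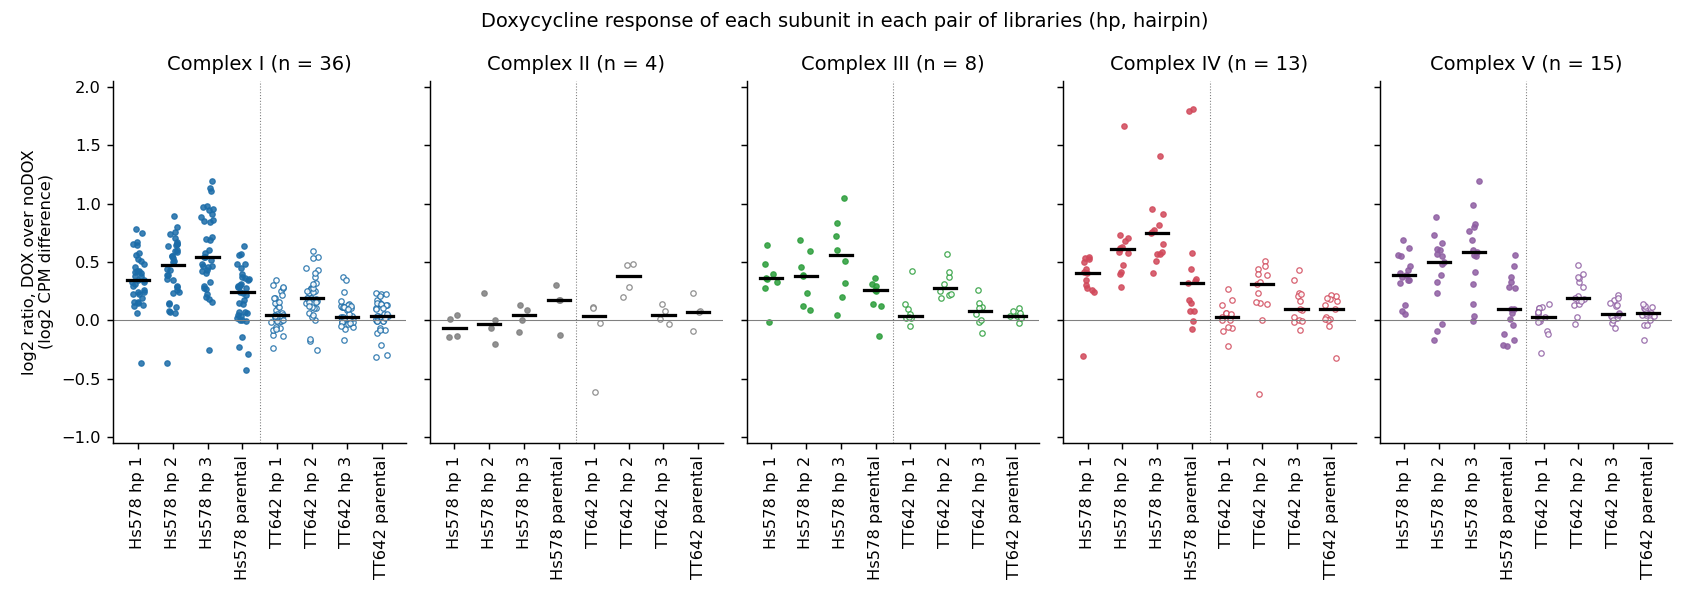
Log2 ratio of DOX over noDOX (vertical axis) in each of the 8 pairs of libraries, by complex; each point is a tested subunit, filled for Hs578 and open for TT642, and each bar is the median. The medians of complexes I, III, IV and V lie above 0 in all 3 Hs578 hairpin pairs, between 0.35 and 0.75, and those of complex II between −0.06 and 0.05.

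Complex I, the NADH dehydrogenase, had 27 of 36 subunits higher, 1 lower and 8 not called in Hs578, with a median log2 fold change of 0.46. Summed over the complex, normalised CPM were 2159.9, 2525.9 and 2742 in DOX libraries with hairpins 1, 2 and 3, against 1779, 1954 and 1888 in noDOX libraries. The groups did not overlap, and the exact two-sided permutation test gave p = 0.1, the smallest that 3 against 3 allows. By structural module, 6 of 8 genes of the NADH-oxidising N module rose and 1 fell, 5 of 8 of the ubiquinone-reducing Q module rose, and 16 of 20 of the proton-pumping membrane P module rose, with medians of 0.35, 0.52 and 0.57.

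NDUFA3, an accessory subunit of the membrane arm, had the largest log2 fold change in complex I. It had 33.2, 44.8 and 51.6 CPM in DOX libraries and 19.8, 24.02 and 22.5 CPM in noDOX libraries, a log2 fold change of 0.97 ± 0.14 (SE, adjusted p = 0.000501). NDUFA13, also known as GRIM-19, had 28.8, 37.5 and 48.1 CPM in DOX libraries and 16.7, 22.1 and 21.8 CPM in noDOX libraries (log2 fold change 0.92 ± 0.16, adjusted p = 0.00141). In both genes every DOX library lay above every noDOX library, and both were also called with the length offset, at 0.50 and 0.45. The parental line had 28.7 CPM of NDUFA3 with doxycycline and 20.5 CPM without, and 26.1 and 17.7 CPM of NDUFA13.

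Among core subunits of the N and Q modules, NDUFS8 rose by 0.80, NDUFS3 by 0.55, NDUFS7 by 0.48, NDUFV2 by 0.36 and NDUFV1 by 0.34 on the log2 scale, and NDUFS1 fell. NDUFS1, which holds iron-sulfur clusters of the N module, had 156, 145 and 150 CPM in DOX libraries and 201, 187 and 178 CPM in noDOX libraries, a log2 fold change of −0.33 ± 0.08 (adjusted p = 0.00836). The groups did not overlap, and parental Hs578 had 148 CPM with doxycycline and 199 CPM without. The call on NDUFS1 was lost with the length offset (−0.21, adjusted p = 0.0585) and without hairpin 1 or hairpin 3 in both lines. NDUFA5, an accessory subunit of the Q module, was the lowest of those above 0, with 49.2, 48.9 and 51.6 CPM in DOX libraries and 47.2, 46.4 and 46.4 CPM in noDOX libraries (0.10 ± 0.11, adjusted p = 0.565).

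Complex II, succinate dehydrogenase, had none of its 4 subunits called in Hs578, and the median log2 fold change was −0.03. None of the 4 had an unadjusted p under 0.05 in the edgeR test, and DESeq2 called none. Its summed CPM were 288, 334 and 338 in DOX libraries and 297, 321 and 327 in noDOX libraries, ranges that overlap (exact permutation p = 0.7). SDHA, the flavoprotein, had 131, 148 and 133 CPM in DOX libraries and 127, 126 and 133 CPM in noDOX libraries (0.09 ± 0.09, adjusted p = 0.488). SDHB, the iron-sulfur subunit, was at −0.00 ± 0.16, and the membrane anchors SDHC and SDHD were at −0.05 ± 0.11 and −0.06 ± 0.16. With the length offset SDHC was called lower (−0.51, adjusted p = 0.00548). Its implied length was 264 bases, and the median of its GENCODE 29 transcripts was 460 bases. On log2(FPKM + 1) in limma, SDHA was called higher (0.40, adjusted p = 0.0189) and SDHD lower (−0.35, adjusted p = 0.0486). The promoter window of SDHD printed above holds NRF1 and ETS letters, as does that of ATP5I, which rose.

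Complex III, ubiquinol-cytochrome c reductase, had 5 of 8 subunits higher and 3 not called, with a median of 0.44. UQCR10, a small membrane subunit, had 65.9, 82.2 and 100 CPM in DOX libraries and 42.1, 51.1 and 48.3 CPM in noDOX libraries (0.81 ± 0.15, adjusted p = 0.00197), and UQCRQ, which binds near cytochrome b, rose by 0.65 ± 0.12 (adjusted p = 0.00195). UQCR11 (0.52), UQCRH (0.47) and UQCRB (0.41) rose too. The larger subunits did not pass the test. UQCRC1 was at 0.28, UQCRC2 at 0.04 ± 0.09 (adjusted p = 0.763), and the Rieske iron-sulfur protein UQCRFS1 at 0.23 ± 0.09 (adjusted p = 0.0801). UQCRC2 had 104, 108 and 118 CPM in DOX libraries and 105, 102 and 114 CPM in noDOX libraries, which overlap.

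Complex IV, cytochrome c oxidase, had 11 of its 13 tested subunits higher, with a median of 0.61, and its summed CPM had the largest ratio of the 5 complexes, 1.49 for the DOX mean over the noDOX mean, against 1.32 for I, 1.31 for III, 1.2 for V and 1.02 for II. COX6B1, on the intermembrane side where the enzyme pairs up, had 132, 181 and 202 CPM in DOX libraries and 93.2, 111 and 105 CPM in noDOX libraries (0.74 ± 0.14, adjusted p = 0.00202). COX4I1, the largest nuclear subunit and a site of regulation by ATP, had 258, 348 and 405 CPM in DOX libraries and 193, 225 and 215 CPM in noDOX libraries (0.67 ± 0.14, adjusted p = 0.00436). In both genes the lowest DOX library lay above the highest noDOX library. COX5B, COX6A1, COX6C, COX7B, COX7A2, COX8A and COX7C rose by 0.46 to 0.64. COX5A and NDUFA4 rose least, by 0.37 ± 0.11 and 0.36 ± 0.09. With the length offset COX6B1, COX7B and NDUFA4 were still called, the other 8 were not, and COX5A was at −0.07.

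The tissue-restricted isoforms of complex IV other than COX6B2 were near 0 in both lines. COX6B2 had 27 to 57 counts (1.39 to 2.89 CPM) in TT642 libraries. COX4I2, the lung isoform, had no count in any of the 16 libraries. The muscle isoform COX6A2 had at most 1 count, COX7B2 at most 1 and COX8C at most 2, against at least 26.5 CPM of their common partners COX6A1, COX7B and COX8A. COX7A1, the muscle isoform of subunit 7a, had 2, 2 and 16 counts in DOX libraries and 1, 1 and 5 counts in noDOX libraries of the Hs578 hairpin lines, and at most 1 count in any TT642 library. COX6B2, the testis isoform, had 8, 17 and 18 counts in DOX libraries and 12, 6 and 10 counts in noDOX libraries of Hs578. The fitted fold changes of both, the highest of complex IV, did not pass the test (adjusted p = 0.18 and 0.115).

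Complex V, ATP synthase, had 12 of 15 subunits higher and 3 not called, with a median of 0.52. ATP5D, the delta subunit of the rotor stalk, had 48.5, 75.3 and 80.0 CPM in DOX libraries and 31.4, 40.7 and 34.8 CPM in noDOX libraries (0.93 ± 0.16, adjusted p = 0.00154). ATP5I, the e subunit of the dimer interface, had 61.7, 79.4 and 97.9 CPM in DOX libraries and 45.7, 52.1 and 49.2 CPM in noDOX libraries (0.70 ± 0.13, adjusted p = 0.00168). No DOX library of either gene lay within the noDOX range. The subunits of the catalytic hexamer were not called. ATP5B, the catalytic beta subunit, had 637, 606 and 668 CPM in DOX libraries and 581, 681 and 651 CPM in noDOX libraries (−0.00 ± 0.09, adjusted p = 1), and ATP5A1, the alpha subunit, was at 0.01 ± 0.09 (adjusted p = 0.941). ATP5A1 was called lower on log2(FPKM + 1) in limma (−0.30, adjusted p = 0.0191). ATP5F1, of the peripheral stalk, was at 0.04, and was called lower with the length offset (−0.32, adjusted p = 0.0101). The genes ATP5G1, ATP5G2 and ATP5G3, which code for the same mature ring subunit, rose by 0.65, 0.55 and 0.36.

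**Figure D3:**
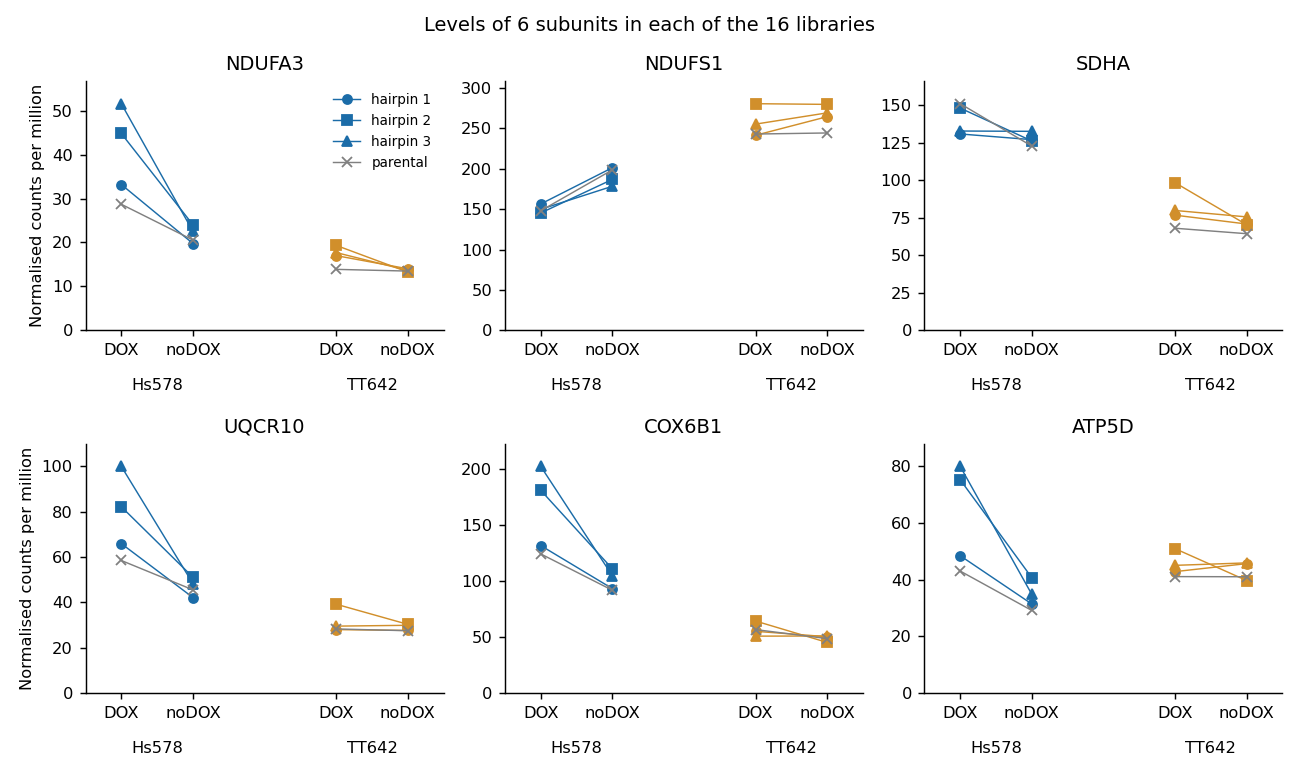
Normalised CPM (vertical axis, from 0) of 6 subunits in each of the 16 libraries, with DOX and noDOX libraries of the same derived line joined; marker shapes stand for the hairpins and grey crosses for the parental line. In Hs578, NDUFA3, UQCR10, COX6B1 and ATP5D are higher in every DOX library, NDUFS1 is lower in every one, and SDHA overlaps.

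Subunits that rose were found both with and without a motif in the promoter window. The median log2 fold change in Hs578 was 0.52 for the 36 tested subunits with a motif, of which 27 rose and 1 fell, and 0.44 for the 27 without, of which 21 rose. It was 0.48 for 11 subunits with the NRF1 letters, 0.59 for 20 with the ETS letters and 0.47 for 12 with the YY1 letters. NDUFA13 and NDUFS1, of which the first rose and the other fell, both hold the ETS letters in the windows printed above.

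Of the genes outside complexes I to V that matched the rule, COX7A2L, an assembly factor of supercomplexes of III and IV, rose in Hs578 (0.28 ± 0.08, adjusted p = 0.0166). NDUFA4L2, ATP5S, ATP5SL, ATP5EP2 and COX6A1P2 did not pass the test. ATP5EP2, COX6A1P2 and ATP5L2 are near copies of ATP5E, COX6A1 and ATP5L, and ATP5J2-PTCD1 overlaps ATP5J2, so reads may be split between them and their values are uncertain.

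Other genes of the pathway were described from lists chosen with earlier results known. The counts here and in the next paragraph are to be read against the 15.2% of all genes called higher and the 14.1% called lower in Hs578. These shares varied with implied length. Among genes other than the subunits, 43.1% under 500 bases were called higher and 29.1% over 4000 bases lower. The listed genes were not set against genes of like length. Of the 13 subunits made from mitochondrial DNA, 12 rose in Hs578, with a median of 0.85. Their medians by pair were 0.21, 0.92 and 1.46 for hairpins 1, 2 and 3 and 0.67 in the parental pair, and MT-CO2 rose most, by 1.13 ± 0.18. Among 7 nuclear genes of the chain with other symbols 4 rose, including NDUFAB1 (0.47) and ATPIF1 (0.43), and CYC1, the cytochrome of complex III, was at 0.26 (adjusted p = 0.0864). Of 18 complex I assembly factors 3 rose, with NDUFAF3 at 0.57, and 15 did not pass the test, a share near the 15.2% of all genes. Of 22 complex IV assembly factors 8 rose, led by PET100 (0.89) and COX17 (0.75), and COX15 fell by 0.30. Of 4 complex II assembly factors 3 rose, among them C6orf57 by 1.16 and SDHAF1 by 0.67, while the SDH subunits themselves were not called. Of 6 complex III factors 2 rose (C11orf83 by 0.71 and UQCC2 by 0.62) and TTC19 fell by 0.31, and the 4 complex V factors lay between −0.13 and 0.36 and were not called.

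Of 21 genes of the citrate cycle and of electron carriers 3 rose, led by IDH2 (1.2 ± 0.13, adjusted p = 0.000147) and ETFB (0.88), and DLD fell by 0.31. The share called higher was again near the 15.2% of all genes. Of 11 genes of coenzyme Q synthesis COQ4 rose by 0.38 and PDSS2 fell by 0.38. Among 17 tested regulators of mitochondrial biogenesis 3 fell, a share near the 14.1% of all genes called lower, and the other 14 were not called. HIF1A fell by 0.70, PPARGC1B, a coactivator, by 0.57, and TFAM, which packages mitochondrial DNA, by 0.40 on the log2 scale. NRF1 (−0.01), YY1 (0.08) and GABPA (−0.30) were not called. Glycolysis, listed for comparison, had 12 of 19 genes higher and 1 lower, with ALDOA at 0.76 and HK2 at −0.42. Of 18 cytosolic ribosomal protein genes, listed as short and abundant transcripts, 17 rose, with a median of 0.58 and pair medians of 0.42, 0.53 and 0.79 for hairpins 1, 2 and 3 and 0.50 in the parental pair. The mitochondrial share of counts was 3.18%, 4.27% and 5.44% in DOX libraries and 2.79%, 2.29% and 2.16% in noDOX libraries with hairpins 1, 2 and 3. These ribosomal and mitochondrial levels also rose in Hs578. As for the nuclear subunits, their pair medians rose from hairpin 1 to hairpin 2 to hairpin 3. Only the place of the parental pair, with 1 library per condition, differed. The parental pair median stood above that of hairpin 1 for the ribosomal genes (0.50 against 0.42) and the mitochondrial subunits (0.67 against 0.21). For the nuclear subunits it stood below (0.23 against 0.35). The part of these levels in the result was not tested.

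In TT642 no subunit was called. All 76 missed the threshold in the edgeR test, 8 were higher and 0 lower at an unadjusted p under 0.05 (10.5%, against 7.82% of all genes in either direction), and DESeq2 called 1. Of all genes 0.0285% were called in either direction. The median log2 fold change of the subunits was 0.13, and 69 of 76 were above 0. Pair medians were 0.04, 0.23 and 0.06 for hairpins 1, 2 and 3 and 0.04 in the parental pair. Hairpin 2 thus stood apart, with 6401 CPM summed over the subunits in its DOX library and 5344 CPM in its noDOX library, against 5475 and 5396 CPM with hairpin 1 and 5585 and 5370 CPM with hairpin 3. Without hairpin 2 in both lines the median was 0.05. Its ribosomal median was 0.34, against −0.02 and −0.00 with hairpins 1 and 3. In 21 of the 76 subunits (27.6%) the 3 DOX libraries lay above the 3 noDOX libraries, against 8.54% of all tested genes. UQCRFS1, the Rieske protein, had the lowest p of the subunits in TT642, with 79.9, 94.6 and 74.8 CPM in DOX libraries and 59.6, 63.9 and 62.6 CPM in noDOX libraries, groups that do not overlap (0.42 ± 0.09, adjusted p = 0.168). NDUFA3 had 17.002, 19.3 and 17.7 CPM in DOX libraries and 14.002, 13.3 and 13.6 CPM in noDOX libraries (0.40 ± 0.14, adjusted p = 0.453). The other subunits with an unadjusted p under 0.05 were NDUFC1, NDUFB11, SDHA, COX8A, NDUFA4 and ATP5G3, at 0.20 to 0.28. SDHB, by contrast, had 62.6 CPM in the DOX library of hairpin 1 and 96.0 CPM in its noDOX library, and 106 and 91.6 CPM in the DOX libraries of hairpins 2 and 3 against 92.2 and 90.95 CPM in their noDOX libraries. NDUFA4L2 had 28.8, 20.9 and 36.1 CPM in DOX libraries and 45.9, 59.7 and 46.7 CPM in noDOX libraries (−0.83 ± 0.18, adjusted p = 0.168), and the parental line had 33.8 CPM with doxycycline and 32.4 CPM without. Complex IV sums were 745, 899 and 759 CPM in DOX libraries and 730, 710 and 707 CPM in noDOX libraries (ratio 1.12, exact permutation p = 0.1).

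The response was larger in Hs578 than in TT642 for 12 subunits and smaller for none, by the test of the difference itself, with 2.76% of all genes called higher and 2.48% lower. They were NDUFA2, NDUFA6, NDUFA13, NDUFB1, NDUFB2, NDUFB4, NDUFS5 and NDUFS8 of complex I and ATP5D, ATP5E, ATP5G1 and ATP5L of complex V. ATP5L, the g subunit of the membrane sector, had 121, 132 and 154 CPM in DOX libraries and 82.0, 93.3 and 86.7 CPM in noDOX libraries of Hs578, and 82.5, 87.4 and 81.9 CPM in DOX libraries and 78.6, 77.8 and 80.5 CPM in noDOX libraries of TT642. Its difference in log2 fold change was 0.55 ± 0.13 (adjusted p = 0.0336). In both lines every DOX library stood above every noDOX library, by a narrow margin in TT642. ATP5G1 had 48.01, 67.6 and 75.4 CPM in DOX libraries and 37.8, 40.6 and 43.2 CPM in noDOX libraries of Hs578, and 15.6, 17.8 and 17.1 CPM in DOX libraries and 18.9, 18.2 and 17.97 CPM in noDOX libraries of TT642 (difference 0.78 ± 0.19, adjusted p = 0.0404). NDUFB1, an accessory subunit of the membrane arm, had 24.5, 31.7 and 36.4 CPM in DOX libraries and 16.6, 20.3 and 19.4 CPM in noDOX libraries of Hs578, and 27.1, 28.6 and 27.4 CPM in DOX libraries and 28.7, 32.3 and 25.2 CPM in noDOX libraries of TT642 (difference 0.77 ± 0.19, adjusted p = 0.0409). In TT642 the fitted change was −0.12 for ATP5G1 and −0.05 for NDUFB1. NDUFB4, another accessory subunit of the membrane arm, had 115, 138 and 134 CPM in DOX libraries and 86.1, 92.2 and 91.5 CPM in noDOX libraries of Hs578, and between 39.8 and 44.9 CPM in all 6 hairpin libraries of TT642 (difference 0.47 ± 0.12, adjusted p = 0.0422). NDUFB2 had 47.3, 55.7 and 61.0 CPM in DOX libraries and 29.7, 35.5 and 31.1 CPM in noDOX libraries of Hs578, and 25.8, 24.4 and 26.5 CPM in DOX libraries and 22.2, 21.4 and 24.9 CPM in noDOX libraries of TT642 (difference 0.61 ± 0.15, adjusted p = 0.0422). None of complexes II, III and IV was called, the closest being UQCR10 (0.67 ± 0.21, adjusted p = 0.0758). With the derived line as a block, so that each DOX library is set against its own noDOX library, 30 subunits were called higher, as were 875 of all 14035 genes, against 387 without the block. With the length offset none was called higher, 1 was called lower and the median difference was 0.01, against 0.36 without it. The count rested on single libraries. It was 39 without the Hs578 DOX library of hairpin 1 (and 1158 of 14019 over all genes), 5 or 6 without the Hs578 noDOX library or either TT642 library of hairpin 2, 0 without any other single hairpin library of either line, 1 without hairpin 1 in both lines and 0 without hairpin 2 or 3 in both.

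**Figure D4:**
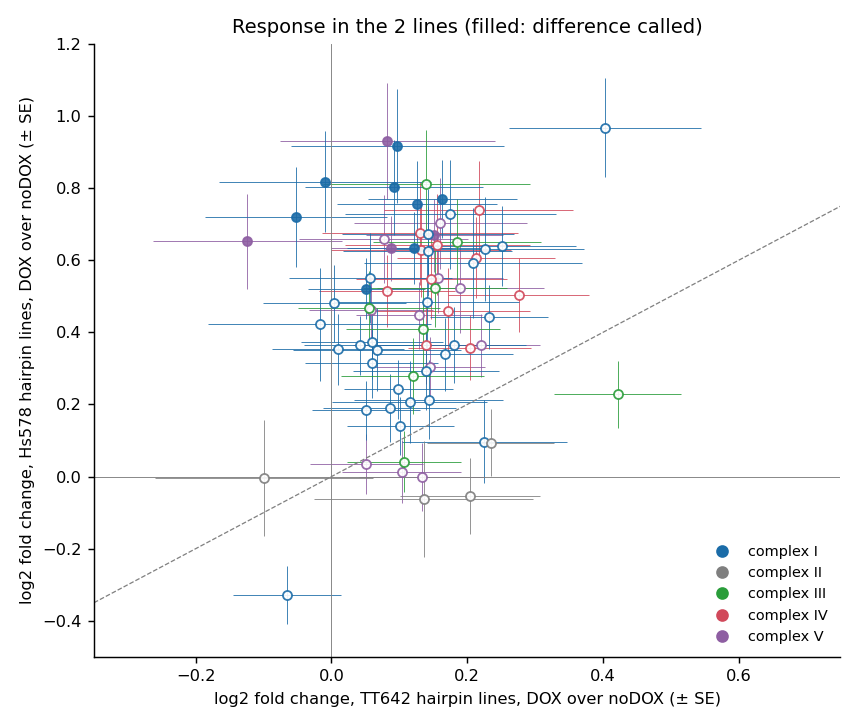
Log2 fold change of DOX over noDOX in the Hs578 hairpin lines (vertical axis) against that in the TT642 hairpin lines (horizontal axis), with SE bars, for the tested subunits other than the low COX7A1 and COX6B2; the dashed line marks equal values and filled points the 12 called differences. Most points lie above the line, and 3 of the 4 complex II subunits lie under it.

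With the parental response taken off, no subunit was called in Hs578 or in TT642 (edgeR), and 0.406% and 0% of all genes were called. At an unadjusted p under 0.05, 9 subunits were higher and 0 lower in Hs578 (11.8%, against 14.2% of all genes in either direction), and none in either direction in TT642 (1.27% of all genes). DESeq2 called none in either line. The median net log2 fold change was 0.29 in Hs578, with 67 of 76 subunits above 0, and 0.05 in TT642, with 56 above 0. NDUFB2 had the lowest adjusted p in Hs578, 0.144, at 0.74 ± 0.22, with 30.6 CPM in the parental DOX library and 29.95 CPM in the parental noDOX library. ATP5L and ATP5G3 came next by p, at 0.57 ± 0.18 and 0.53 ± 0.17. ATP5G3 had 154.7, 155.7 and 169.7 CPM in DOX libraries and 121, 124 and 128 CPM in noDOX libraries of the hairpin lines, and 107 CPM in the parental DOX library and 120.2 CPM in the parental noDOX library, so that its hairpin and parental pairs lay on opposite sides of 0. The parental line of each pair is 1 library per condition, so its spread is assumed to be that of the hairpin lines.

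Without doxycycline the 2 lines differed in many subunits. In the hairpin lines 43 of 76 subunits were higher in Hs578 than in TT642 and 14 lower, a median log2 fold change of 0.32, with 41% of all genes called higher and 39.7% lower. Summed CPM ratios were 1.54 for complex III, 1.42 for II, 1.40 for IV, 1.06 for I and 1.05 for V. UQCRB, which binds ubiquinone in complex III, had 286, 315 and 320 CPM in Hs578 and 77.8, 86.8 and 73.6 CPM in TT642, a log2 fold change of 1.95 ± 0.12 (adjusted p = 7.02e-10). COX6C had 149, 156 and 166 CPM in Hs578 and 42.9, 49.1 and 39.4 CPM in TT642 (1.84 ± 0.12, adjusted p = 1.54e-09). NDUFB9 had 145, 169 and 151 CPM in Hs578 and 51.9, 53.6 and 54.1 CPM in TT642 (1.54 ± 0.11, adjusted p = 3.34e-09). The lines did not overlap in any of these genes.

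UQCRB, COX6C and NDUFB9 are the 3 tested subunits on chromosome 8 in the RefSeq annotation (GRCh38.p14), and this chromosome was singled out after their values were seen. The other 482 tested genes of chromosome 8 had a median log2 fold change of 1.11, Hs578 over TT642, the highest of the 22 autosomes, and 72.6% of them were called higher. Medians of the other autosomes ran from −0.51 on chromosome 14 to 0.41 on chromosome 3. The 12 subunits on chromosome 19 had a median of 0.58, and its 1050 other genes −0.18. Copy number was not measured in these libraries.

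Members lower in Hs578 were led by NDUFA4L2, a paralogue of NDUFA4 known to be induced by hypoxia, with 1.16, 1.52 and 1.32 CPM in Hs578 and 45.9, 59.7 and 46.7 CPM in TT642 (−5.24 ± 0.25, adjusted p = 1.06e-10). COX6B2 followed at −2.23 ± 0.34 (12, 6 and 10 counts in Hs578 and 51, 53 and 42 counts in TT642), and then NDUFA10, of the membrane arm, at −0.999 ± 0.08 (54.5, 58.9 and 59.7 CPM in Hs578 and 114, 111 and 121 CPM in TT642). NDUFS3, of the Q module, had 33.6, 38.9 and 38.5 CPM in Hs578 and 68.9, 71.1 and 72.5 CPM in TT642 (−0.94 ± 0.12). COX7A1 had 1, 1 and 5 counts in Hs578 and 0 in each of the 3 TT642 libraries, and its call (adjusted p = 0.0447) rests on these counts and was lost in some of the alternatives, where the adjusted p reached 0.178. Of complex II, SDHA was higher in Hs578 by 0.83 ± 0.09 and SDHD by 0.60 ± 0.16, and SDHB (0.22) and SDHC (0.19) were not called. The common isoforms COX4I1 (0.63), COX6A1 (0.54), COX6B1 (1.08), COX7A2 (0.42), COX7B (0.67) and COX8A (0.85) and NDUFA4 (0.38) were higher in Hs578.

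**Figure D5:**
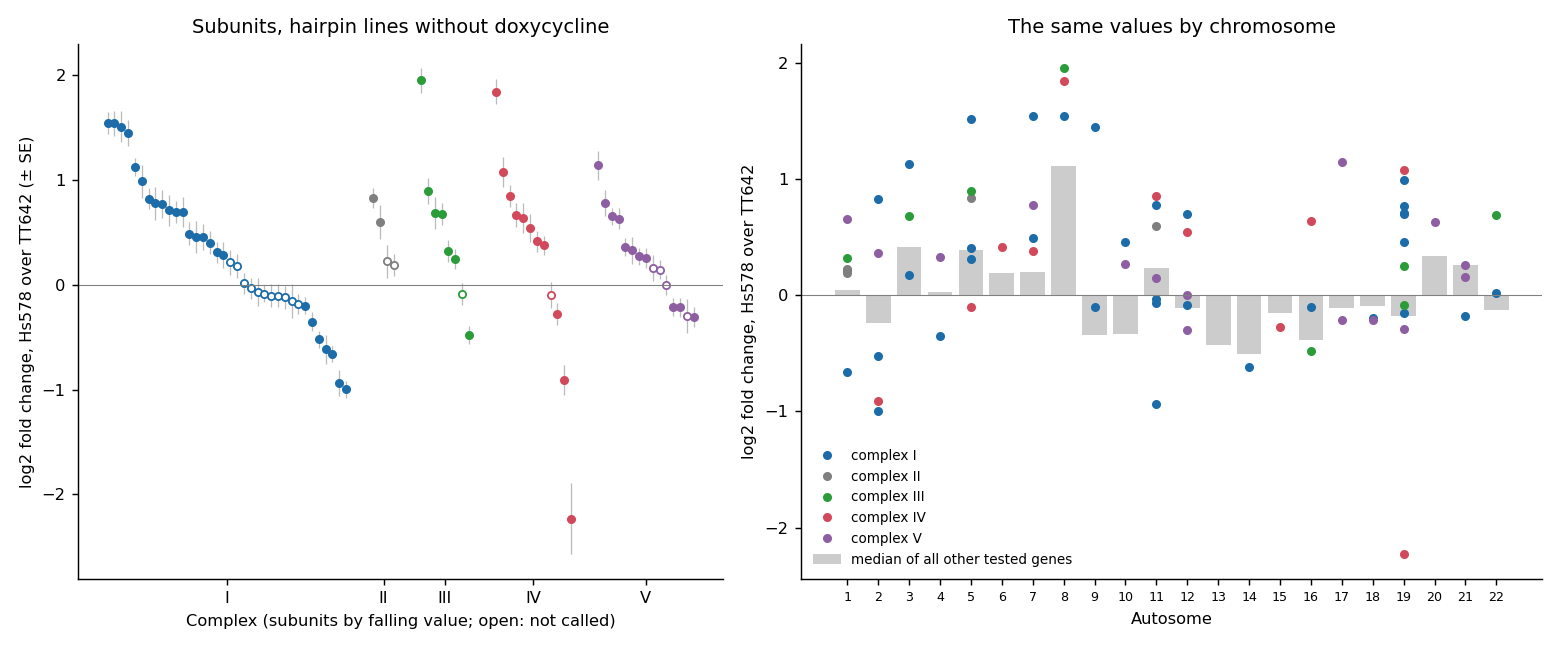
Log2 fold change of Hs578 over TT642 in the hairpin lines without doxycycline (vertical axes) for the tested subunits other than COX7A1, by complex with SE bars (left, open where not called) and by autosome (right, with grey bars for the median of all other tested genes). UQCRB, COX6C and NDUFB9 lie on chromosome 8, where the other genes have a median of 1.11.

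Per length, the order of levels also differed. In deposited FPKM, the highest subunits in Hs578 noDOX hairpin libraries were UQCRB at 539 (463 to 610), COX6C at 502 (464 to 540), COX6B1 at 441 (395 to 475) and ATP5B at 403 (361 to 436). ATP5J2 followed at 401 (357 to 438), and each of these 5 ranges overlaps that of its neighbour in the order. In TT642 they were ATP5B at 452 (430 to 472), ATP5J2 at 278 (273 to 282) and ATP5A1 at 277 (261 to 297), the last pair overlapping. Complex medians were 70.97 FPKM for I, 71.0 for II, 92.4 for III, 156 for IV and 144 for V in Hs578, and 64.8, 59.7, 108, 157 and 137 FPKM in TT642. The lowest tested subunit was COX6B2 in Hs578, at 0.245 FPKM (0.155 to 0.331), and COX7A1 in TT642, where it was listed at 0. This order rests on the implied length, which for some subunits was far from the GENCODE 29 median. It was 107 against 314.5 bases for ATP5J2, and 2886 against 605 bases for COX7B.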

How the data were processed

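Raw counts per gene, and FPKM values for nearly the same genes, were deposited by the authors with 1 column for every library, and all 16 columns of each were matched to the labels by name (0 columns not used). Per the labels' protocols, RNA was extracted with RNeasy and stranded mRNA libraries were made with TruSeq. The genome build hg 19 is named in the submitters' processing notes. No aligner, counter, annotation or strand setting is given in the sources used here. Replicates were not pooled, since each library has its own column. The deposited FPKM values come from a model and did not give whole reads.

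From the counts, genes with enough counts were kept (filterByExpr, 14035 of 20114), libraries were scaled by TMM, and edgeR 4.0.16 (R 4.3.3) fitted 1 mean per group over all 16 libraries (quasi-likelihood, robust, 8 residual degrees of freedom, prior count 2). P-values are two-sided, adjusted by Benjamini-Hochberg over all tested genes and called under 0.05. CPM are counts over the TMM-scaled library size, as edgeR gives them, and the SE is the log2 fold change divided by the square root of F. Sums over a complex were compared with exact permutation tests. The fits were tested on simulated counts. No pair of libraries was a duplicate.

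Each hairpin number marks 1 derived line grown with and without doxycycline, which pairs the libraries by design. For hairpins 1, 2 and 3 the deviations from the group means correlated within Hs578 pairs at 0.13, −0.03 and 0.00, and within TT642 pairs at 0.44, 0.42 and 0.42.

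Alternatives were RLE scaling, DESeq2 1.42.0, no filter on low counts, limma 3.58.1 on log2(FPKM + 1) and log2(FPKM + 0.1), no robust moderation, the derived line as a block, each line fitted alone, a smooth offset for length (loess, span 0.3, from genes with a count of at least 10), and leaving out each library and each hairpin. Offsets for GENCODE 29 transcript length and GC content were added after seeing the data. Members and gene lists were chosen with earlier results of these data known. Named with values were, in each complex, the 2 highest and 2 lowest log2 fold changes in Hs578, all SDH genes, the tissue isoforms with their partners, the 5 lowest p-values of the difference between lines, and the 4 highest and 4 lowest of Hs578 over TT642. Others named in the text were chosen after their values were seen. Promoter windows run from 250 bases before to 50 after the start and come from RefSeq, as do the chromosomes, found for 13846 of the 14035 tested genes. UQCRHL was not analysed here.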

Additional observations from a re-analysis of the deposited data

Results flagged for a closer look

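The response to hairpin induction differed between Hs578 and TT642 by the test of the difference itself in 12 subunits, all larger in Hs578. In complex I the difference in log2 fold change, Hs578 minus TT642, was 0.83 for NDUFA2, 0.82 for NDUFA13, 0.77 for NDUFB1, 0.71 for NDUFS8, 0.63 for NDUFS5, 0.61 for NDUFB2, 0.51 for NDUFA6 and 0.47 for NDUFB4. In complex V it was 0.85 for ATP5D, 0.78 for ATP5G1, 0.55 for ATP5L and 0.52 for ATP5E. Adjusted p lay between 0.0336 and 0.0499 in edgeR's quasi-likelihood test, close to the threshold.

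NDUFA4L2 moved in opposite directions in the hairpin pairs of the lines, up in all 3 of Hs578 and down in all 3 of TT642. It had 19, 29 and 32 counts in DOX libraries and 20, 25 and 23 counts in noDOX libraries of Hs578, and 477, 450 and 939 counts in DOX libraries and 809, 1227 and 839 counts in noDOX libraries of TT642, before scaling for library size. The difference in log2 fold change was 1.28, and its test did not pass the threshold (adjusted p = 0.0625). In the parental pairs, without a hairpin, the log2 ratio was 0.78 in Hs578 (39 counts DOX and 26 noDOX) and 0.06 in TT642. The Hs578 hairpin pairs were lower than the parental pair, at 0.14, 0.61 and 0.48.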

How the results depend on the processing

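Over the alternatives run, 1 median over the subunits changed its sign (TT642 net of the parental line, without the DOX library of hairpin 2), and so did 36 values of single named members. In Hs578, limma on log2(FPKM + 1) and on log2(FPKM + 0.1) called 3 and 2 subunits lower, the length offset called 16 higher and 2 lower with a median of 0.12, and the GENCODE length offset gave a median of 0.36. Of all 14035 genes the limma fits called 3112 and 2903 lower. In TT642 DESeq2 called 1 subunit higher, and 42 of 12520 genes. For the difference between the lines, limma called 7 and 5 subunits higher with the 2 pseudocounts, and no robust moderation 7. The length offset called 0 higher and 1 lower, with a median of 0.0113. With the GENCODE length offset 3 were called higher, and with the replicate block 30. The block changed no other count of subunits by over 1.5 times. For the difference, limma called 329 and 253 of all 14035 genes higher, no robust moderation 340, the length offset 111 and the block 875. In TT642 the block called 24 of all genes higher and 22 lower, against 2 and 2 without it. In Hs578 net of the parental line it called 86 of all genes higher and 54 lower, against 41 and 16. Net of the parental line, the Hs578 median over the subunits was 0.11 with the length offset. The cause of these shifts was not tested.

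Leaving out a library or a hairpin gave these ranges. In Hs578 16 to 60 subunits were called higher and 0 to 1 lower, with medians of 0.41 to 0.58. In TT642 0 were called and medians were 0.05 to 0.16. For the difference 0 to 39 were called higher and 0 lower, with medians of 0.25 to 0.48. Net of the parental line 0 were called, and medians were 0.18 to 0.38 in Hs578 and −0.01 to 0.10 in TT642. Between the lines 35 to 44 were higher and 9 to 16 lower, with medians of 0.26 to 0.37. Over all genes, the 16 and 60 of Hs578 stood beside 376 of 13965 and 2486 of 14019 called higher. The 35 and 9 between the lines stood beside 5264 of 13965 genes called higher and 5113 of 14014 called lower.

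Single members changed sign in Hs578, all of them not called except COX5A. NDUFA5 was at −0.0298 and −0.0307 with the limma fits, −0.0923 with the length offset and −0.0228 with the GENCODE length offset. SDHA was at −0.00327 with the length offset and −0.0260 with the GC offset, and SDHB at 0.0670 with the GC offset. COX5A, called at 0.37, was at −0.0653 with the length offset. UQCRC2 was at −0.14 with both limma fits, −0.0701 with the length offset and −0.0907 with the GENCODE length offset. ATP5A1 was at −0.0198 with RLE scaling, −0.0203 with DESeq2, −0.30 with both limma fits (adjusted p = 0.0191 and 0.0203), −0.0843 with the length offset and −0.16 with the GENCODE length offset. ATP5B was at 0.000951 with the replicate block. With a library or hairpin left out, the ranges were −0.0948 to 0.12 for SDHB, −0.0871 to 0.000912 for SDHC, −0.19 to 0.0360 for SDHD, −0.0130 to 0.0863 for UQCRC2, −0.0349 to 0.0497 for ATP5A1 and −0.0640 to 0.0784 for ATP5B. Between the lines SDHC was at −0.0311 and −0.0314 with the limma fits, and both limma fits called 22 subunits lower. Of all 14035 genes they called 6006 and 6070 lower, with all-gene medians of −0.11 and −0.15.

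Of the 56 subunits called in Hs578, 16 were called whichever library or hairpin was left out, 52 with the GC offset and 11 in every setting run. How many of all genes kept their call in these ways was not counted, so these numbers have no background beside them. In the main fit 15.2% of all genes were called higher and 14.1% lower.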

Other observations

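In TT642 the mitochondrial and nuclear subunits were highest relative to noDOX in different pairs. The median log2 ratio of DOX over noDOX over the 13 subunits made from mitochondrial DNA was 0.74 with hairpin 3, −0.02 with hairpin 1, 0.14 with hairpin 2 and 0.06 in the parental pair, while the nuclear subunits stood at 0.06 with hairpin 3. With hairpin 2 the nuclear subunits stood at 0.23.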
